A study of Mus musculus with 10 samples.

Results

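Thyroid hormone signalling in interscapular brown adipose tissue (iBAT) was followed through 9 genes that make, import, bind or answer the active hormone: Dio1, Dio2, Dio3, Slc16a10, Crym, Thra, Thrb, Ncor1 and Klf9. They were chosen by gene symbol, and all 9 were found among the 54347 gene records of the count table. Of these, 6 had enough reads to be among the 13733 genes tested between genotypes, while Dio1, Dio3 and Crym fell under the filter on low counts. The study asked whether loss of the lncRNA Gm15551 changes the transcriptome of cold-activated iBAT. Poly A RNA was sequenced from 5 ΔGm15551 mice (replicates 1, 2, 4, 5 and 7) and 5 wild type mice (replicates 2, 3, 5, 6 and 7). All 10 mice were on the C57BL/6N background, 12 weeks old, fed chow and housed alone at 4 °C for 24 h, so no mouse kept at a warmer temperature entered any comparison. ΔGm15551 mice carry a CRISPR/Cas9 deletion of exon 1 of Gm15551 in every cell and derive from a single line backcrossed to wild type animals.

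Brown fat produces heat when sympathetic nerves release noradrenaline, and cyclic AMP inside the adipocyte then carries the signal. The thyroid mainly releases T4, a prohormone, which type 2 deiodinase (Dio2) converts to active T3 within the brown adipocyte. T3 binds nuclear receptors encoded by Thra and Thrb, which recruit corepressors such as NCOR1 without hormone and coactivators with it. Type 1 deiodinase (Dio1) also activates T4, mainly in liver and kidney, and type 3 deiodinase (Dio3) inactivates both hormones.

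The 9 genes lie apart in the genome, and none overlaps another. On GRCm38, Dio2 is at chr12:90724552-90738438 on the minus strand and Dio3 at chr12:110279068-110281097 on the plus strand. Dio1 is at chr4:107291465-107307169, Slc16a10 at chr10:40033532-40142258 and Crym at chr7:120186380-120202111, all on the minus strand. Thra is at chr11:98740638-98769006 on the plus strand and Ncor1 at chr11:62316426-62458541 on the minus strand. Thrb is at chr14:17660261-18038090 and Klf9 at chr19:23141226-23168134, both on the plus strand. Thra shares 263 exonic bases with the clock gene Nr1d1, Dio2 shares 100 with the lncRNA record Gm26512 (59 counts over the 10 mice), and Ncor1 shares 82 with Pigl, all on opposite strands. No source used here says if read strand entered the counting, so the shared stretches may have been counted for either gene.

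The promoters of the 3 deiodinase genes are shown because these genes differed most in level in cold iBAT. They are RefSeq sequences on GRCm38.p6, each from 250 bases before to 50 bases after the start annotated by RefSeq, written 5′ to 3′ along the gene. Capitals mark the full cAMP response element TGACGTCA, the palindrome bound by CREB family factors, which was searched on both strands. The windows are chr12:90738989-90739288 (minus strand) for Dio2, chr4:107307119-107307418 (minus strand) for Dio1 and chr12:110278980-110279279 (plus strand) for Dio3.
Dio2: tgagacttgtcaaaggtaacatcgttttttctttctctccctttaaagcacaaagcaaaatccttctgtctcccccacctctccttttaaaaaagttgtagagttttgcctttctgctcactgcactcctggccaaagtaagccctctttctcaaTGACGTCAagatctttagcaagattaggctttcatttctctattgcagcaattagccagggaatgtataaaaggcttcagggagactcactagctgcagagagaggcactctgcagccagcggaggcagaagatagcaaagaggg
Dio1: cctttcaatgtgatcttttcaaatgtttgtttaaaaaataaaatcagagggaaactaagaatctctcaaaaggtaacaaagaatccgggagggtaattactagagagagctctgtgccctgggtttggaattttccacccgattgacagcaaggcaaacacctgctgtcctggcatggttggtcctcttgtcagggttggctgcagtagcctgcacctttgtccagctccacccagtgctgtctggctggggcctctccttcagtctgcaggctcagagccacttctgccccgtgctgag
Dio3: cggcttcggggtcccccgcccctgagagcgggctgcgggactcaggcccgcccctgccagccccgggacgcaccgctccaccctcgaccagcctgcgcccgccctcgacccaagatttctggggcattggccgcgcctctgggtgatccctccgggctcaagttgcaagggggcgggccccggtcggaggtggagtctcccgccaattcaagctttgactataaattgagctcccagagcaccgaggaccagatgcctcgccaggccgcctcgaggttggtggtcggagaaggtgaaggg
The Dio2 window held the element once, with its first base 95 bases before the RefSeq start, which lies upstream of the 5′ end of the GENCODE gene given above, and the Dio1 and Dio3 windows did not hold it. Promoters were given for 7 of the 9 genes (Thra and Crym had none), and no other window among these held the full element. Across all 32851 promoter windows of the same length, 588 (1.79%) held it. The core TGACG, which is part of the full element, was also found 46 bases before the start of Klf9 and 56 bases before the upstream start of Thrb, and 20.8% of all windows held it. A direct repeat of the nuclear receptor half-site with 4 bases between, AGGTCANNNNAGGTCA, was in none of the windows of these genes and in 5 of all windows (0.0152%). The half-site AGGTCA alone occurred 184 bases before the upstream start of Thrb and in 16.3% of all windows.

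Total counts ranged from 9680976 to 15771170 per mouse. Gm15551 had 0 counts in all 5 ΔGm15551 libraries and 0 to 7 in wild type libraries, with 0 in wild type replicate 7, so the target was near the detection limit of every library. The labelled tissue carried its markers: the 7 brown adipocyte markers summed to 10457 to 14723 CPM (read counts relative to the TMM-scaled library size) in ΔGm15551 and 10515 to 13799 CPM in wild type. The 10 skeletal muscle markers varied from 1.37 to 1974 CPM in ΔGm15551 libraries and from 1.52 to 3045 CPM in those of wild type, with the highest sums in wild type replicate 7 and ΔGm15551 replicate 4. Most of the brown adipocyte sum came from Ucp1, Cidea and Elovl3. Of these 7 markers, the less abundant identity genes Zic1 (log2FC, ΔGm15551 over wild type, 0.84; edgeR, unadjusted p = 0.0199) and Lhx8 (1.05; edgeR, unadjusted p = 0.00718) had higher means in ΔGm15551, with overlapping groups and an adjusted p of 0.99998; they were named after their values were seen, and their part in the values below was not tested. Among the other brown adipocyte markers the log2FC was 0.15 for Ucp1, 0.10 for Cox8b, 0.05 for Elovl3, 0.01 for Prdm16 and -0.03 for Cidea. Male-specific genes were counted in every mouse. In tissue RNA, fewer cells of a type and less RNA per cell cannot be told apart.

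Levels of different genes were compared per length, as CPM per kilobase of exons. Dio2 was the highest of the 9 genes at 73.7 ± 12.9 CPM per kilobase (SD, n = 10), followed by Klf9 at 41.3 ± 2.85 and Thra at 18.9 ± 2.30. Ncor1 reached 7.71 ± 0.889, Slc16a10 3.86 ± 0.773 and Thrb 2.86 ± 0.727. Each of these genes exceeded the next in 10 of 10 mice, by 1.76-fold (Dio2 over Klf9), 2.19-fold (Klf9 over Thra), 2.45-fold (Thra over Ncor1), 2.02-fold (Ncor1 over Slc16a10) and 1.37-fold (Slc16a10 over Thrb). All 5 steps passed an exact paired permutation test (two-sided, adjusted p = 0.00195, the smallest that sign flips of 10 mice allow). The order was taken from these same mice, so these p values measure only how steady each step was between mice. They do not cover error in the gene length used. The ranges over mice overlapped only for Slc16a10 and Thrb. With the length of the longest transcript in place of all exons the order of means was the same, but Klf9 was then only 1.25-fold above Thra, in 9 of 10 mice (not in ΔGm15551 replicate 5) and with overlapping ranges (exact paired permutation test, two-sided, adjusted p = 0.00391).

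**Figure D1:**
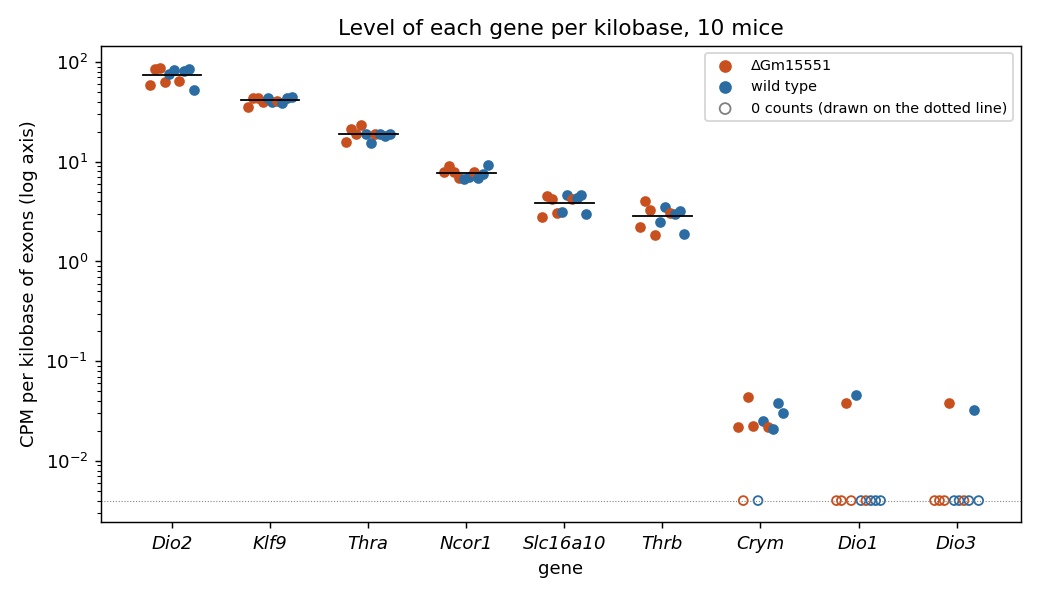
Levels of the 9 thyroid hormone genes in CPM per kilobase of exons (log axis), with 1 point per mouse and the mean of the 6 tested genes as a bar. Dio2 stood highest at 73.7 CPM per kilobase, and Crym, Dio1 and Dio3 had 0 counts (open circles) in some or most mice.

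Among the deiodinases, Dio2 collected 55982 counts over the 10 mice, while Dio1 and Dio3 had 2 counts each. The 2 reads of Dio1 came from ΔGm15551 replicate 4 and from wild type replicate 2, those of Dio3 from ΔGm15551 replicate 5 and from wild type replicate 6. Per kilobase and over all mice, Dio2 was 9480-fold above Dio1 (95% exact counting interval 2630 to 78300) and 9770-fold above Dio3 (2710 to 80700). These intervals cover counting error only. The single counts of Dio1 and Dio3 lie below the 3 counts that a library at 0 would still allow, which is 0.190 to 0.310 CPM here. Expression of the inactivating enzyme and of the liver and kidney type enzyme was therefore at or under the detection limit in both genotypes. No difference between genotypes was detectable for either gene at this depth (exact permutation test, two-sided, p = 1 for each).

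Dio2 varied between mice more than the genotypes differed. It measured 445, 488, 471, 490 and 304 CPM in wild type replicates 2, 3, 5, 6 and 7, and 340, 493, 511, 366 and 375 CPM in ΔGm15551 replicates 1, 2, 4, 5 and 7. Wild type replicate 7 was the lowest mouse of all and ΔGm15551 replicate 4 the highest, and the groups overlapped. The mean was 417 ± 78.8 CPM in ΔGm15551 against 440 ± 77.9 in wild type (SD, n = 5 each), a log2 fold change (log2FC, ΔGm15551 over wild type) of -0.08 ± 0.16 (SE; 95% interval -0.43 to 0.28; edgeR quasi-likelihood test with Benjamini-Hochberg over all genes, adjusted p = 0.99998). Wild type replicate 7 and ΔGm15551 replicate 4, at opposite ends for Dio2, were also the libraries with the most muscle counts; without both, the log2FC was -0.27 (edgeR, unadjusted p = 0.0832). With the level of the muscle markers as a covariate in all 10 mice, it was -0.06 (edgeR, unadjusted p = 0.705), close to the value without the covariate.

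None of the 6 tested genes passed the adjusted threshold of 0.05, against 0% of all 13733 genes tested by edgeR, and DESeq2 also called none. None passed at an unadjusted p under 0.05, where 1.6% of all genes (220) did, 0.961% towards higher and 0.641% towards lower values in ΔGm15551. None had groups without overlap, which 0.226% of all genes showed in the higher and 0.0947% in the lower direction. The log2FC was positive for 3 and negative for 3, with a median of -0.0065 beside -0.001 over all genes tested. Over all alternatives tried, the lowest adjusted p of these genes was 0.919.

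**Figure D2:**
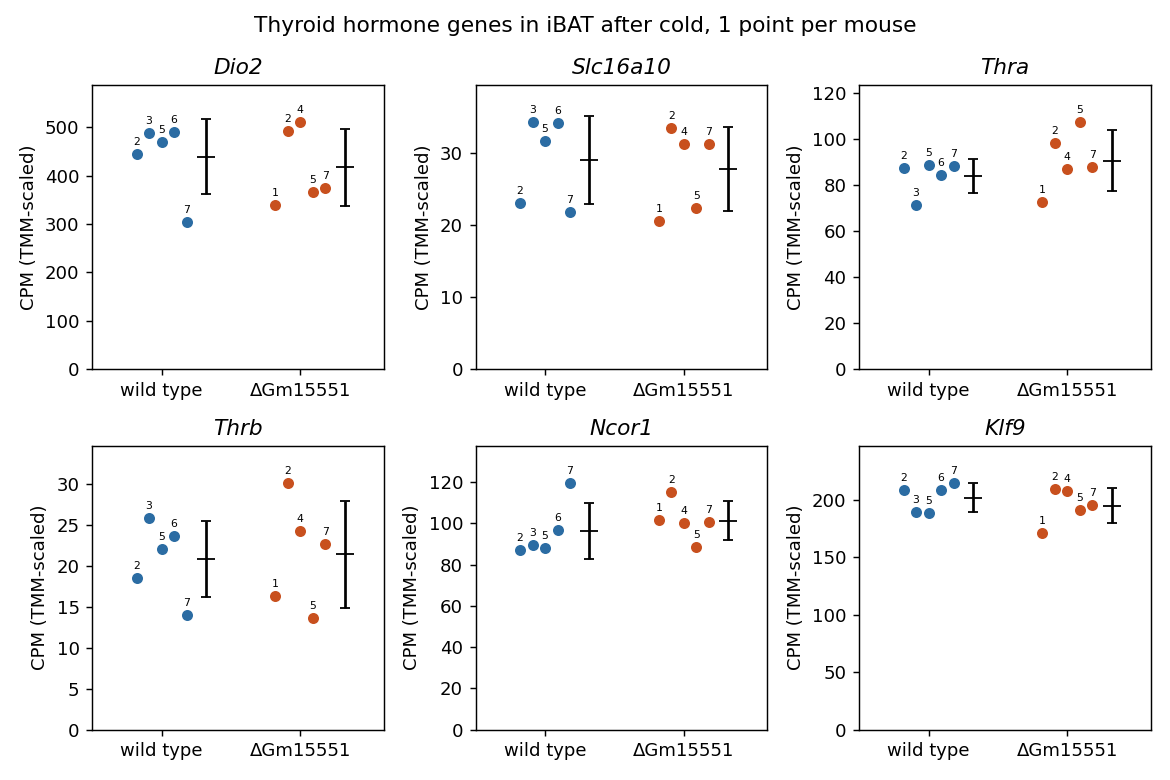
TMM-scaled CPM of the 6 tested genes, with 1 numbered point per mouse in wild type and ΔGm15551 and the mean ± SD (n = 5) as a bar. The groups overlap in every panel, and wild type replicate 7 is the lowest mouse for Dio2 at 304 CPM.

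Slc16a10 encodes a membrane transporter that carries T3, T4 and aromatic amino acids. It measured 23.1, 34.3, 31.8, 34.2 and 21.9 CPM in wild type replicates 2, 3, 5, 6 and 7, and 20.5, 33.5, 31.3, 22.4 and 31.2 CPM in ΔGm15551 replicates 1, 2, 4, 5 and 7. The mice fell into a low set of 4, at 20.5 to 23.1 CPM, and a high set of 6, at 31.2 to 34.3 CPM. Each set held mice of both genotypes, 2 of each in the low set and 3 of each in the high set. The means were 27.8 ± 5.89 CPM in ΔGm15551 against 29.1 ± 6.10 in wild type (SD, n = 5 each), with a log2FC of -0.07 ± 0.17 (SE; 95% interval -0.44 to 0.31; edgeR, adjusted p = 0.99998).

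Crym encodes mu-crystallin, a cytosolic protein that binds T3 and depends on NADPH. It had 5 counts in each genotype, from 0 to 2 per mouse, with a count in 4 of 5 mice of each group. Its mean level was 0.0747 ± 0.0532 CPM in ΔGm15551 against 0.0766 ± 0.0479 in wild type (SD, n = 5 each), and no difference was detectable at this depth (exact permutation test, two-sided, p = 0.913). In the 2 libraries with the most muscle counts, Crym had 2 counts (ΔGm15551 replicate 4) and 1 count (wild type replicate 7). In libraries with very few muscle counts it had 2 counts (wild type replicate 6), 1 count (wild type replicate 3, ΔGm15551 replicate 7) and 0 counts (ΔGm15551 replicate 2).

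Thra encodes the receptor alpha and, by splicing, a form that does not bind the hormone; gene-level counts do not separate them. It measured 87.2, 71.2, 88.5, 84.5 and 88.4 CPM in wild type replicates 2, 3, 5, 6 and 7, and 72.5, 98.4, 87.0, 107 and 87.8 CPM in ΔGm15551 replicates 1, 2, 4, 5 and 7. ΔGm15551 replicate 5 was the highest and wild type replicate 3 the lowest, with overlapping groups. The means were 90.6 ± 13.1 CPM in ΔGm15551 against 84.0 ± 7.32 in wild type (SD, n = 5 each), with a log2FC of 0.11 ± 0.12 (SE; 95% interval -0.15 to 0.37; edgeR, adjusted p = 0.99998). Nr1d1, its antisense neighbour and a repressor of the circadian clock, ranged from 99.5 to 139 CPM in wild type and from 103 to 173 CPM in ΔGm15551. Its log2FC was 0.10 ± 0.16 (SE; edgeR, adjusted p = 0.99998).

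Thrb encodes the receptor beta. It measured 18.5, 25.9, 22.1, 23.6 and 14.1 CPM in wild type replicates 2, 3, 5, 6 and 7, and 16.3, 30.2, 24.3, 13.7 and 22.7 CPM in ΔGm15551 replicates 1, 2, 4, 5 and 7. ΔGm15551 mice held both the highest and the lowest value, so the wild type range lay inside theirs. The means were 21.4 ± 6.59 CPM in ΔGm15551 against 20.8 ± 4.63 in wild type (SD, n = 5 each), with a log2FC of 0.04 ± 0.21 (SE; 95% interval -0.42 to 0.50; edgeR, adjusted p = 0.99998). This was the widest interval of the 6 genes.

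The balance of both receptors was compared as the ratio of Thra to Thrb per kilobase. Thra was above Thrb in 10 of 10 mice, with a median ratio of 6.32 and a range of 4.41 to 12.6. By the longest transcript the median ratio was 9.96, so its size rests on the length used. In wild type replicates 2, 3, 5, 6 and 7 the ratio was 7.55, 4.41, 6.42, 5.74 and 10.1, and in ΔGm15551 replicates 1, 2, 4, 5 and 7 it was 7.14, 5.23, 5.74, 12.6 and 6.21. The highest ratios came from 1 mouse of each genotype, ΔGm15551 replicate 5 and wild type replicate 7, and the groups overlapped. The difference in log2 ratio between ΔGm15551 and wild type was 0.09, smaller than its SD within each group (two-sided exact permutation test, p = 0.778), and it was -0.12 without ΔGm15551 replicate 5 and -0.06 without wild type replicate 3.

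Ncor1 encodes the corepressor that holds histone deacetylase activity at receptors without hormone. It measured 86.9, 89.7, 88.1, 96.9 and 120 CPM in wild type replicates 2, 3, 5, 6 and 7, and 102, 115, 100.1, 88.5 and 100.5 CPM in ΔGm15551 replicates 1, 2, 4, 5 and 7. Both the highest and the lowest mouse were wild type, so the ΔGm15551 range lay inside the wild type range. The means were 101.2 ± 9.51 CPM in ΔGm15551 against 96.2 ± 13.6 in wild type (SD, n = 5 each), with a log2FC of 0.07 ± 0.12 (SE; 95% interval -0.18 to 0.33; edgeR, adjusted p = 0.99998).

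Klf9 encodes a zinc finger transcription factor that T3 and glucocorticoids induce in several tissues. It measured 209, 189, 189, 209 and 215 CPM in wild type replicates 2, 3, 5, 6 and 7, and 171, 209.9, 207, 191 and 196 CPM in ΔGm15551 replicates 1, 2, 4, 5 and 7. Apart from ΔGm15551 replicate 1, the mice of both groups lay in 1 range, and the coefficient of variation over the 10 mice, 6.91%, was the smallest of the 6 tested genes. The means were 195 ± 15.5 CPM in ΔGm15551 against 202 ± 12.3 in wild type (SD, n = 5 each), with a log2FC of -0.05 ± 0.10 (SE; 95% interval -0.27 to 0.17; edgeR, adjusted p = 0.99998).

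Variation between mice differed among the genes. The SD of log2 CPM over the 10 mice was 0.38 for Thrb, 0.30 for Slc16a10, 0.27 for Dio2, 0.18 for Thra, 0.16 for Ncor1 and 0.10 for Klf9. From the lowest to the highest mouse, Thrb spanned 2.21-fold, Dio2 1.68-fold and Klf9 1.26-fold. ΔGm15551 replicates 1 and 5 and wild type replicate 7 were among the 4 lowest mice for Dio2, Slc16a10 and Thrb alike. Thra went another way in ΔGm15551 replicate 5, where it was at its highest while Thrb was at its lowest. That library had the lowest level of transcripts low in GC relative to those high in GC (-0.46, log2, as a deviation from the mean of all mice), and wild type replicate 3, the lowest for Thra, had the highest (0.43). The longest transcript of Thra holds 59.8% GC, that of Thrb 44.1% and that of Dio2 43.4%. The part of GC content by itself in these values was not tested.

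Among the 15 pairs of tested genes, 3 passed an adjusted p of 0.05 over all 10 mice (permutation test, 100000 resamples, Benjamini-Hochberg over the 15 pairs), namely those joining Dio2, Thrb and Slc16a10. For Dio2 and Thrb, Pearson's r was 0.834 (permutation p = 0.00388, adjusted p = 0.0291) and Spearman's rho 0.867 (permutation p = 0.00253, adjusted p = 0.0296), with an r of 0.723 without the 2 mice farthest from the median of Dio2. For Slc16a10 and Thrb, r was 0.911 (permutation p = 0.00071, adjusted p = 0.0106) and rho 0.842 (permutation p = 0.00395, adjusted p = 0.0296), with an r of 0.899 without the 2 mice farthest from the median of Thrb. For Slc16a10 and Dio2, r was 0.798 (permutation p = 0.00613, adjusted p = 0.0306) and rho 0.806 (permutation p = 0.00691, adjusted p = 0.0345), with an r of 0.618 without the 2 mice farthest from the median of Dio2. Since Slc16a10 lay in separate low and high sets, its values over all 10 mice span both sets. Within the high set of 6, which spans only 31.2 to 34.3 CPM, r was 0.520 with Thrb (exact permutation p = 0.301; rho 0.486, p = 0.356) and 0.449 with Dio2 (exact permutation p = 0.456; rho 0.200, p = 0.714). Dio2 also had a gap, with 4 mice at 304 to 375 CPM and 6 at 445 to 511 CPM, and within these 6 its r was 0.755 with Thrb (exact permutation p = 0.0847; rho 0.714, p = 0.136) and 0.783 with Slc16a10 (exact permutation p = 0.107; rho 0.200, p = 0.714). Thrb had its widest gap between 18.5 and 22.1 CPM, with the same 6 mice above it as for Slc16a10. Within these 6, r of Thrb with Dio2 was 0.427 (exact permutation p = 0.312) and rho 0.657 (exact permutation p = 0.175). A narrow range lowers r by itself, so these values within sets do not show that the relations are absent there.

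The mouse numbers formed a lower series of 7 mice and a higher series of 3 wild type mice (replicates 5, 6 and 7). Within the 7 mice of the lower series, none of the 15 pairs passed (exact permutation test). There r was 0.775 for Dio2 and Thrb (exact permutation test, adjusted p = 0.281), 0.916 for Slc16a10 and Thrb (adjusted p = 0.0744) and 0.725 for Slc16a10 and Dio2 (adjusted p = 0.281). The 3 mice of the higher series were too few for a value of their own. Without the 2 libraries with the most muscle counts r between Dio2 and Thrb was 0.770 (exact permutation test, adjusted p = 0.127) and rho 0.881 (exact permutation test, adjusted p = 0.0362). The level of long relative to short transcripts also differed between libraries, and its deviation from the mean of all mice was -0.21 in ΔGm15551 replicate 5, -0.19 in wild type replicate 7 and -0.10 in ΔGm15551 replicate 1 (log2). These 3 mice were low for Dio2, Thrb and Slc16a10, whose longest transcripts of 5815, 6200 and 5397 bases are above those of Thra (2452 bases). Ncor1, with the longest transcript of the 6 genes (9037 bases), was at its highest in wild type replicate 7. Klf9 (4486 bases) was also at its highest in that mouse, at 215 CPM. Wild type replicate 2, low for Thrb and Slc16a10 too, had a deviation of -0.0098. The part of transcript length by itself in these values was not tested. After a correction for length and GC content, r between Dio2 and Thrb was 0.704 (permutation test, adjusted p = 0.0716), and that between Thra and Thrb went from -0.173 to 0.727 (permutation test, adjusted p = 0.0715). The pairs that then passed by Pearson's r were Slc16a10 with Thrb and Slc16a10 with Thra (adjusted p = 0.0207 each), and no pair passed by Spearman's rho, so the pairs that pass depend on this correction.

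**Figure D3:**
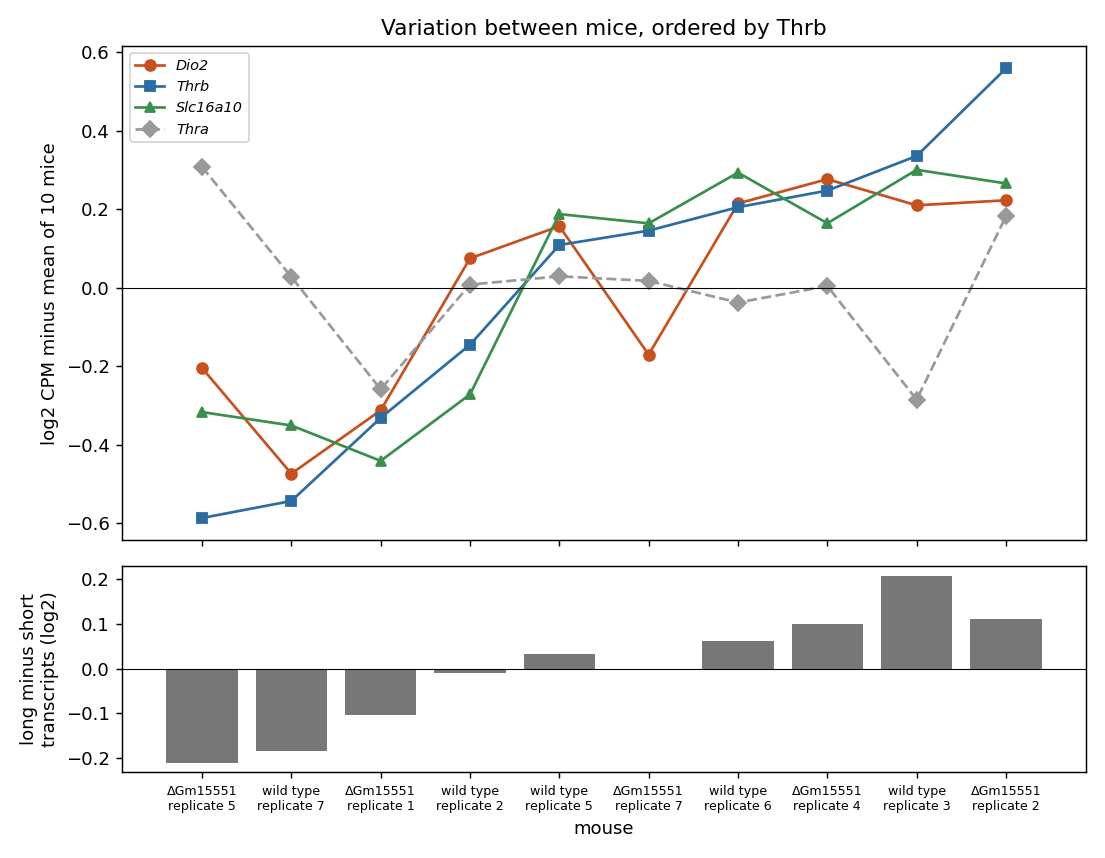
Deviation of log2 CPM from the mean of 10 mice for Dio2, Thrb, Slc16a10 and Thra (upper panel), and of the level of long minus short transcripts (lower panel, log2), with mice ordered by Thrb. ΔGm15551 replicate 5, wild type replicate 7 and ΔGm15551 replicate 1 are low for the first 3 genes and have the lowest long minus short values, -0.21, -0.19 and -0.10.

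Many other genes varied in a like way. Of the tested genes, 716 others had a higher r with Dio2 than Thrb did, and 344 a higher r with Thrb than Slc16a10 did. By the root mean square difference of centred log2 CPM over the 10 mice, the genes nearest to Thrb were Secisbp2l (0.04), Snx13 (0.07) and Ero1l (0.08). Those nearest to Slc16a10 were Taf2 (0.06), Fam210b (0.07) and Fam13a (0.07), and those nearest to Dio2 were Rcan3 (0.05), Ints10 (0.07) and Gna13 (0.08).

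A further 48 genes of hormone transport, receptor function and response gave the setting of these results. Of these, 39 were tested, and none passed the adjusted threshold, an unadjusted p under 0.05, or had groups without overlap. Their log2FC was positive for 21 and negative for 18, with a median of 0.01 beside -0.001 over all genes. The 9 untested genes included the thyroid genes Tg, Slc5a5 and Pax8 and the transporters Slco1c1, Slco1a4 and Slc17a4, each with at most 5 counts in any mouse.

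Of 7 further hormone transporters, 4 were tested, with a median log2FC of 0.12. Slc3a2, the heavy chain that pairs with amino acid transporters, was the most abundant of them at a mean of 138 CPM over the 10 mice, with a log2FC of 0.07 ± 0.13 (SE). Slc7a8 had the largest log2FC, 0.79 ± 0.69 (SE; edgeR, adjusted p = 0.99998), on 3.80 to 48.1 CPM in ΔGm15551 against 6.06 to 12.8 in wild type. The value of 48.1 CPM came from ΔGm15551 replicate 2 alone, and the next highest mouse was at 15.6 CPM. Without it, the log2FC of Slc7a8 was -0.22.

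The retinoid X receptors, with which thyroid hormone receptors form heterodimers, were all tested and had log2FC values from 0.01 (Rxrg) to 0.12 ± 0.11 (SE, Rxrb). Rxra was the most abundant, at 53.2 to 91.1 CPM in ΔGm15551 against 59.7 to 83.6 in wild type. Among the other genes of the corepressor complex, log2FC values lay between -0.06 for Tbl1xr1 and 0.13 ± 0.09 (SE) for the deacetylase gene Hdac3. The 7 coactivators had a median log2FC of 0.01, and the most abundant, Ppargc1a, spread from 93.9 to 362 CPM in wild type and from 173 to 320 CPM in ΔGm15551.

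Type 2 deiodinase is a short-lived selenoprotein that ubiquitination removes, so the genes for its turnover and synthesis were followed as well. The 4 turnover genes had a median log2FC of 0.01. Usp33, a deubiquitinase that acts on the enzyme, measured 56.8 to 95.9 CPM in ΔGm15551 against 54.1 to 95.2 in wild type, and Wsb1, part of its ubiquitin ligase, had a log2FC of 0.10 ± 0.20 (SE). All 5 selenoprotein synthesis genes had negative log2FC values, from -0.03 (Pstk) to -0.16 ± 0.14 (SE, Eefsec), with a median of -0.10, and none passed either threshold. Leaving out 1 mouse turned the sign of Sephs2 (0.06 without ΔGm15551 replicate 1), Sepsecs (0.03 without wild type replicate 3) and Pstk (0.01 without wild type replicate 2, and likewise without wild type replicate 7). Sephs2, a selenophosphate synthetase and the most abundant of them, measured 169 to 300 CPM in ΔGm15551 against 196 to 290 in wild type.

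The 10 genes known to respond to T3 had a median log2FC of -0.05, 4 positive and 6 negative. Ucp1, the uncoupling protein of brown fat, measured 5747 to 10989 CPM in ΔGm15551 against 6436 to 9007 in wild type, with a log2FC of 0.15 ± 0.18 (SE; edgeR, adjusted p = 0.99998). Srebf1, which encodes a regulator of lipogenic genes, had the largest log2FC of this list, -0.31 ± 0.16 (SE; 95% interval -0.65 to 0.02; edgeR, unadjusted p = 0.0651, adjusted p = 0.99998). It measured 184 to 306 CPM in ΔGm15551 against 261 to 396 in wild type, and the groups overlapped. The log2FC of Srebf1 stayed negative without each mouse in turn, from -0.19 without wild type replicate 5 (edgeR, unadjusted p = 0.215) to -0.42 without ΔGm15551 replicate 7 (edgeR, unadjusted p = 0.0183), and the DESeq2 Wald test gave it an unadjusted p of 0.0460. Tshr, the receptor for thyrotropin, was the only tested gene of the thyroid axis list, at 4.11 to 18.2 CPM in ΔGm15551 against 3.94 to 9.08 in wild type (log2FC 0.51 ± 0.38, SE; edgeR, adjusted p = 0.99998). Its highest value, too, came from ΔGm15551 replicate 2, and without that mouse the log2FC of Tshr was 0.06.

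**Figure D4:**
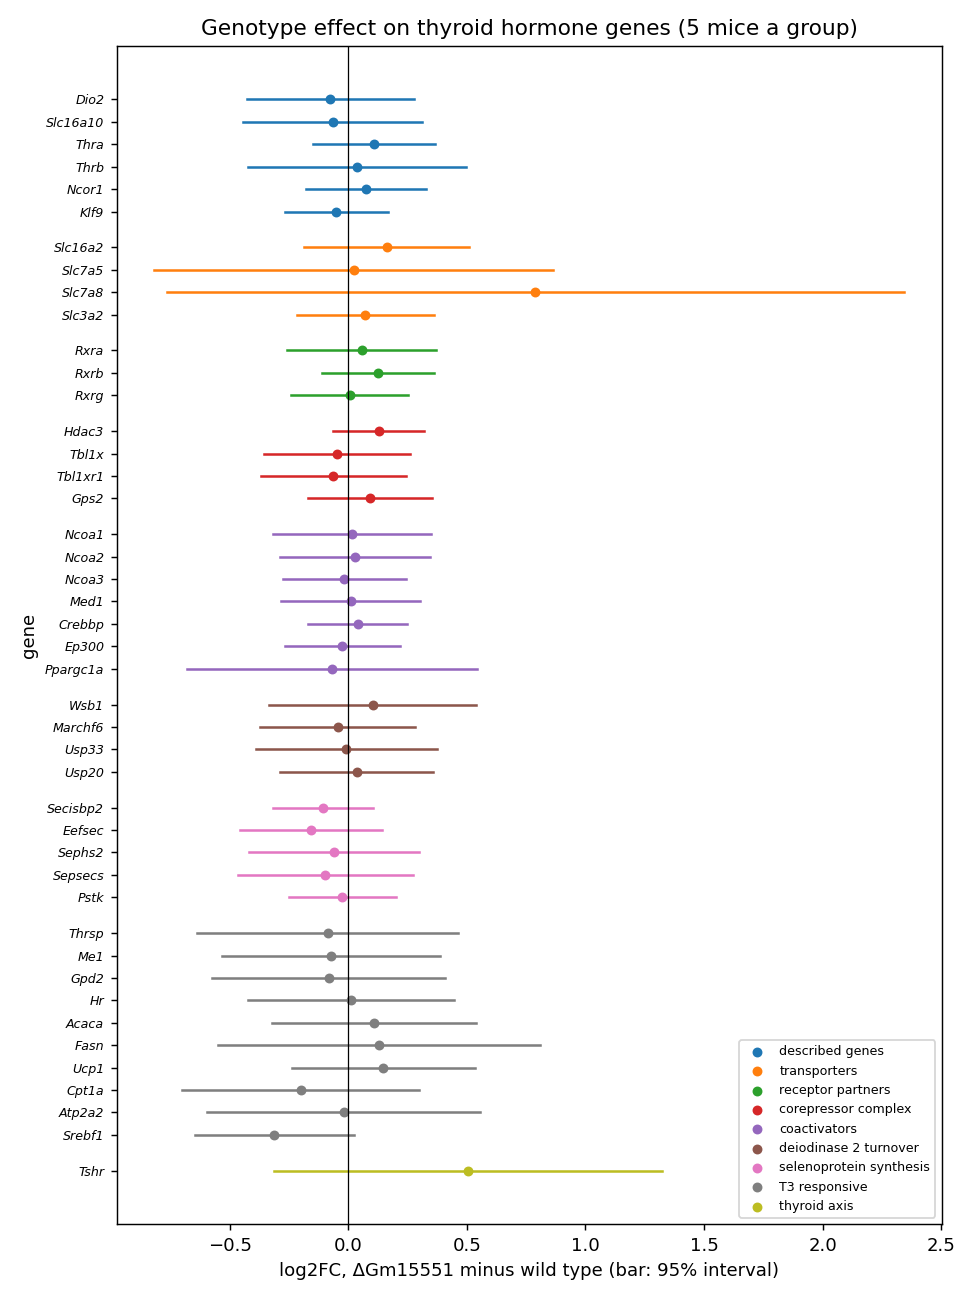
log2FC (ΔGm15551 over wild type) of the 6 tested genes and of further tested thyroid hormone genes, with 95% intervals as bars (5 mice a group), coloured by list. Every interval includes 0, and those of Slc7a8 and Tshr, each with a high value in ΔGm15551 replicate 2, are among the widest.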

How the data were processed

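Poly A RNA of iBAT from 10 mice was sequenced in paired-end libraries. Per the labels and the study's methods, the authors trimmed the reads (cutadapt) and estimated gene abundance with salmon on GENCODE M22 (GRCm38), or M22 joined with RNAcentral; versions are not given in the sources used here. The authors deposited estimated counts per gene as whole numbers, with no scaling to depth. Salmon divides reads that fit several transcripts by an estimate, so levels of overlapping genes are uncertain. Depth was 9680976 to 15771170 counts per mouse; a count of 0 allows up to 3 counts (counting error only).

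The genotype test used edgeR 4.0.16 in R 4.3.3 (filterByExpr with a minimum count of 10 and a minimum total of 15, Gm15551 kept; TMM; robust quasi-likelihood fit with genotype as the only term; Benjamini-Hochberg over 13733 genes, threshold 0.05). The study names DESeq2 with no formula; DESeq2 1.42.0 and limma-voom (limma 3.58.1) were alternatives, as were other scalings and filters, non-robust estimation, a muscle covariate and leaving out mice or the higher number series. Log2 CPM had a prior count of 2. Exon lengths were read from GENCODE M21 (also GRCm38), which held 99.5% of the gene IDs. For single values an exact permutation test enumerated all 252 assignments of mice, where the smallest p is 0.00794. Correlations used 100000 permutations. The fit was tested on simulated data with known changes.

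The members and gene lists were chosen with earlier results of these data known. The genes named were the 9 genes, Gm15551, Nr1d1, the most abundant and the most changed gene of each further list (and any at an unadjusted p under 0.05, of which there was none), and the 3 genes nearest in pattern to the 3 most variable members; the ends of some ranges and the untested genes were also named. Some genes of these lists are not reported here. Leaving out the 2 libraries with the most muscle counts and a loess fit of each library to GC content and transcript length (span 0.3) were chosen after seeing the data, as were the correlations within sets of mice. The labels do not state sex or litter. Pairs of libraries within a group differed by far more than sampling noise (smallest chi-square per degree of freedom 12.7), so none was counted as a duplicate.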

Additional observations from a re-analysis of the deposited data

Results flagged for a closer look

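Values of single mice stood apart from the rest of their group by Dixon's test in 7 of the 50 groups of 5 mice examined, where chance alone gives about 2.5. Dio2 was at 304 CPM in wild type replicate 7, below the other wild type mice at 445 to 490 CPM. In the same mouse Ucp1 was at 6436 CPM and the selenophosphate synthetase gene Sephs2 at 196 CPM, where the other wild type mice had 8266 to 9007 and 280 to 290 CPM. This library had the fewest counts (9680976) and the largest share of counts on muscle markers (0.305%), and the part of either in these values was not tested. Thra was at 71.2 CPM in wild type replicate 3, below 84.5 to 88.5 CPM in the others. Srebf1 was at 396 CPM in wild type replicate 5, above 261 to 280 CPM. Slc7a8 was at 48.1 CPM in ΔGm15551 replicate 2, above 3.80 to 15.6 CPM. The TMM factor of ΔGm15551 replicate 7 was 0.930, below 1.01 to 1.04 in the other ΔGm15551 libraries.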

How the results depend on the processing

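No gene of the 9 or of the further lists was called under any alternative. The order of levels, recomputed with the longest transcript, with medians and without each mouse, held in each. Leaving out each mouse in turn gave log2FC ranges of -0.18 to -0.01 for Dio2, -0.15 to 0.0254 for Slc16a10, 0.04 to 0.18 for Thra, -0.12 to 0.16 for Thrb, 0.02 to 0.16 for Ncor1 and -0.08 to -0.01 for Klf9. The Thra to Thrb log2 ratio difference ranged from -0.12 to 0.24, and CPM differences from -0.0211 to 0.0167 for Crym, -0.0188 to 0.0150 for Dio1 and -0.0127 to 0.0159 for Dio3. Leaving out the higher number series (3 wild type mice), Thrb was at -0.0504 and Crym at 0.0335 CPM, while Dio2 was at -0.16, Thra at 0.20, Ncor1 at 0.20 and the ratio difference at 0.28. Without the 2 libraries with the most muscle counts, Thrb was at -0.12. With the correction for GC content and length, the receptor ratio difference was -0.0537. The number of correlated pairs fell from 3 to 0 in the 7 mice of the lower series and to 0 without the 2 libraries with the most muscle counts by Pearson's r, where 3 still passed by Spearman's rho. Fewer mice entered both.

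For the 6 mice with a replicate number shared by both genotypes, a fit with the number as a replicate block gave a log2FC of 0.03 for Dio2, 0.18 for Slc16a10 and 0.24 for Thrb, and without the block 0.02, 0.18 and 0.28. Deviations of same-numbered mice correlated at -0.065, 0.054 and -0.395. None of the ΔGm15551 mice among them correlated best with the wild type mouse of its number. Expression values alone cannot show if the mice were matched by litter or day. Depth limits Dio1, Dio3 and Crym, and 5 mice a group limit the others to the intervals given.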
